A study of Mus musculus with 12 samples.

Results

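The comparison described here set 4T1 cells that carry the empty plasmid pcDNA3.1 (mock) against untransfected 4T1 cells (wt), and it covered 6 of the 12 RNA sequencing libraries of the series. All 3 mock and all 3 wt libraries were taken, and all genes that passed a filter on low counts were tested, which left 11291 of 22880 features. The study asked which genes move in opposite directions in 4T1 cells that overexpress the transcription factor Myb from the plasmid pcDNA3-mMyb (MYBup) and in untransfected 4T1 cells recovered after 3 passages through mouse lung (lung3). In that design mock is the control for MYBup, and wt is the control for lung3. The labels give mock and wt the same normal lung metastatic activity and no passage in animals, give MYBup a low activity and lung3 a high one, and do not say whether the mock cells are a clone or a pool or which drug, if any, selected them. Neither group carries the Myb plasmid. Transfection with the plasmid and any other difference in the history of the cultures cannot be told apart in this design.

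4T1 is a mammary carcinoma line from a BALB/c mouse that spreads to lung and other organs from the mammary gland, and it is widely used as a model of metastatic breast cancer. It keeps many epithelial genes, such as those of keratins and cell junctions, and secretes proteases and myeloid growth factors. pcDNA3.1 is a mammalian expression plasmid with a strong viral promoter and a gene for resistance to an aminoglycoside antibiotic. A line that carries it without an insert is the usual control for a line that carries a transgene.

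Total counts were 14117503 to 21104811 in the mock libraries and 20617046 to 24745660 in wt, against 8912989 to 24745660 over the series. The labels do not say that replicates are separate cultures, so each p-value reflects library-to-library spread only, which may be technical. Myb, the transgene of the MYBup line, was at 5.17, 4.49 and 6.80 CPM (counts scaled to a fixed library total) in mock and at 4.27, 4.96 and 5.75 CPM in wt. Those ranges overlapped (log2 fold change 0.14, SE 0.16, adjusted p = 0.54), and the mean was 40.7 CPM in MYBup. The epithelial identity given by the labels was visible in every library: the keratin Krt8 was at 1102 to 1189 CPM in mock and 813 to 887 CPM in wt, and the adhesion molecule Epcam was at 58.2 to 69.4 CPM and 72.3 to 103 CPM. Markers of other cell types were low. Of 19 leukocyte markers, 15 stayed under 1 CPM in all 6 libraries and 5 were at 0 (among them Adgre1, Cd3e, Cd8a and Nkg7), and the summed level was 11.96 to 18.18 CPM in mock and 13.92 to 18.7 CPM in wt. Of 12 lung epithelium markers, 7 were at 0, among them the surfactant genes Sftpa1, Sftpb, Sftpc and Sftpd. The summed fibroblast and muscle markers were higher in mock (36.93 to 49.19 against 24.7 to 31.19 CPM), almost all of it Pdgfra, with Lum at 0, and the endothelial sum was 8.56 to 12.12 against 8.2 to 10.45 CPM. The part of these markers in the differences given here was not tested, and in bulk RNA fewer cells of a type and less RNA per cell cannot be told apart.

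The mock cells differed from wt cells at a large share of the genes measured, mostly by small amounts. At an adjusted p under 0.05 in edgeR's quasi-likelihood test, 4056 of 11291 genes were called (35.9%), 2038 higher in mock (18.0%) and 2018 lower (17.9%). The median absolute log2 fold change of the called genes was 0.49, and 637 genes were called with at least a 2-fold difference (5.64%), 349 of them higher and 288 lower. The 3 mock and 3 wt values did not overlap for 3880 of the called genes (95.7%), against 46.9% of all tested genes. Over all tested genes the median log2 fold change was -0.005 and the 5th and 95th percentiles were -0.70 and 0.80. In the principal component plot of the 12 libraries, the second component (24.7% of the variance) set the mock libraries, at 31.6 to 38.1, apart from the 9 others, at -25.0 to -3.3. On the first component (47.6%) mock lay between wt and MYBup.

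**Figure D1:**
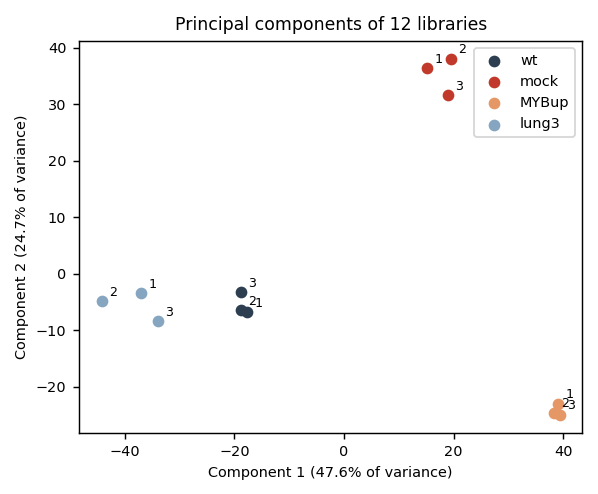
Principal components of log2 CPM in the 12 libraries, with component 1 across and component 2 up, 1 point per library and the replicate number beside it. The mock libraries lie at 31.6 to 38.1 on component 2 and the other 9 libraries lie at or below -3.3.

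The genes with the largest rises and falls were picked among well expressed called genes whose 3 mock and 3 wt values did not overlap. Lack of overlap was thus a condition of entry for them and not a result. The largest rise was in Serpine2, which encodes a secreted inhibitor of thrombin and plasminogen activators. It was at 124, 134 and 49.9 CPM in mock and at 3.14, 2.73 and 6.19 CPM in wt. Mock replicate 3 was the lowest of its group (log2 fold change 4.69, SE 0.36, adjusted p = 2.0e-06). Pgf, the placental growth factor and a ligand of the VEGF receptor Flt1, was at 21.3, 24.5 and 20.9 CPM in mock and at 3.41, 4.09 and 4.46 CPM in wt. The mock values also exceeded every MYBup and lung3 value (log2 fold change 2.48, SE 0.18, adjusted p = 1.9e-06). Ptges, which makes prostaglandin E2, was at 46.0, 51.4 and 39.1 CPM in mock and 10.6, 12.3 and 8.58 CPM in wt. Its log2 fold change was 2.11 (SE 0.16, adjusted p = 2.1e-06). Mmp3, the matrix metalloprotease stromelysin 1, was at 727, 840 and 629 CPM in mock and at 222, 257 and 146 CPM in wt. Its log2 fold change was 1.81 (SE 0.21, adjusted p = 5.1e-05). The claudin gene Cldn3, a tight junction component, rose by 2.69 on the log2 scale. It had 33.1 to 80.4 CPM in mock and 3.30 to 16.3 CPM in wt, where replicate 3 was highest, and the value was 3.71 without that library. Among the rest of the 12 rises picked were the purine enzyme gene Xdh (2.06), the integrin gene Itgb2 (2.01) and the kinase substrate gene Marcks (1.86). The others were Dmpk (1.82), the NAD synthesis gene Nmnat2 (1.80), Ubqln2 (1.79) and the septin gene Sept5 (2.21). Called genes whose groups overlapped, such as Lcn2 (3.38) and C3 (2.05), could not enter. The exons of Sept5 overlap those of Gm49601 on the same strand, so its counts are uncertain.

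Among the same well expressed genes the largest fall was in Rbpms, an RNA-binding protein gene, at 0.427, 0.356 and 0.327 CPM in mock and at 6.86, 6.86 and 9.78 CPM in wt. The log2 fold change was -4.35 (SE 0.23, adjusted p = 2.2e-07), and the MYBup mean was 19.3 CPM. Stc2, which encodes the secreted glycoprotein stanniocalcin 2, was at 1.52, 1.43 and 1.70 CPM in mock and 14.3, 11.5 and 12.4 CPM in wt. Adamts1, a secreted protease of the matrix, was at 35.4, 28.7 and 41.8 CPM in mock and 169, 162 and 184 CPM in wt. For both genes the mock values were the lowest of the whole series, and the log2 fold changes were -3.03 (SE 0.16, adjusted p = 2.2e-07) and -2.28 (SE 0.12, adjusted p = 2.2e-07). Scd1, the stearoyl-CoA desaturase, was at 45.0, 36.8 and 26.5 CPM in mock and 130, 96.5 and 155 CPM in wt. Its log2 fold change was -1.81 (SE 0.20, adjusted p = 3.0e-05). The other large falls were in Ly6e (-2.50), the zinc transporter gene Slc39a4 (-2.24), Ccnb1ip1 (-2.05), the membrane protein gene Prom2 (-2.04), the basal keratin gene Krt14 (-2.04), Samsn1 (-2.02), Unc13b (-1.78) and the FGF-binding protein gene Fgfbp1 (-1.76). In Ly6e and Krt14 wt replicate 3 was the highest of its group, at 16.4 and 11.8 CPM against 8.91 and 6.15 CPM for the next library. Without mock replicate 3 and wt replicate 3 together, the log2 fold changes of Serpine2, Itgb2, Slc39a4 and Ly6e were 5.47, 2.76, -1.49 and -1.92. The exons of Ccnb1ip1 overlap those of the RNA gene Rpph1 on the same strand.

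**Figure D2:**
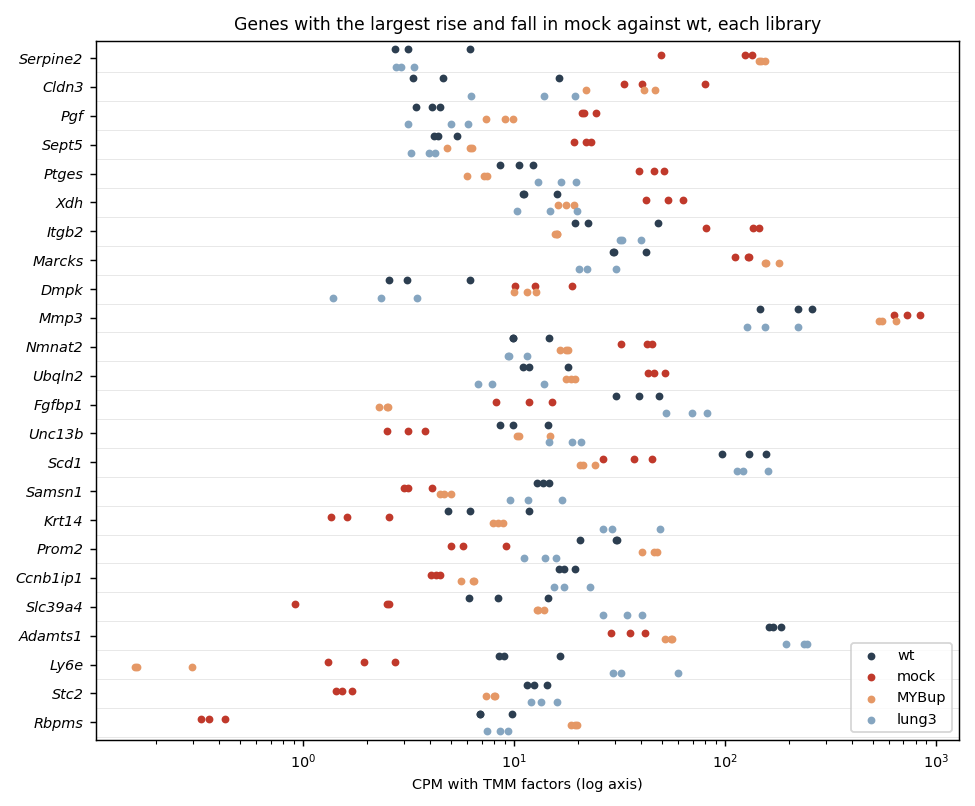
CPM on a log axis for the 12 top rises and 12 top falls among well expressed called genes without overlap of mock and wt. Each library is 1 point and each group has 1 colour. Serpine2 runs from 49.9 to 134 CPM in mock and from 2.73 to 6.19 CPM in wt, and Rbpms stays at or under 0.427 CPM in mock and at or above 6.86 CPM in wt.

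Some genes were expressed in wt and had almost no counts in mock. Among genes with a mean of at least 3 CPM in wt, 4 had at most 3 counts summed over the mock libraries, and no gene met the same rule in the other direction. Hexa encodes the alpha subunit of the lysosomal enzyme beta-hexosaminidase. It had 193, 199 and 157 counts in the wt libraries and 0 in each mock library, which makes it at least 136-fold lower against a floor of 3 counts over the group. It also had 0 counts in all MYBup libraries and 303 in lung3. Rab25, a small GTPase of epithelial recycling endosomes, had 1 count in mock and 619 in wt, a ratio per library total of 460 (95% exact interval 82.2 to 18200), and 8 counts in MYBup. Dapk1, a death-associated protein kinase, had 2 counts in mock, 385 in wt and 3 in MYBup (ratio 143, interval 39.3 to 1180). Rasef, another Rab-type GTPase gene, had 0 counts in mock, 350 in wt and 412 in MYBup, which is at least 86.6-fold lower in mock. Its wt counts were uneven, with 209 of them in wt replicate 3. Hexa, Rab25 and Dapk1 were thus near 0 in both plasmid lines, while the loss of Rasef counts was seen in mock and not in MYBup. Intervals and floors cover counting error only.

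The promoters of Hexa and Rab25 are shown because these genes went from readily counted to none or a single count. The sequences run 5′ to 3′ in the direction of the gene, from RefSeq on GRCm38.p6, and capitals mark each CG, the dinucleotide at which mammalian DNA can be methylated. Methylation was not measured here. The Hexa window is chr9:59539290-59539539 on the plus strand and holds 6 CG. The Rab25 window is chr3:88548301-88548529 on the minus strand and holds 7 CG, after 21 bases inside the annotated gene were left off, and the whole 250 bases hold 8. Over 32851 RefSeq windows of 250 bases the median was 6 CG, with quartiles of 2 and 16.
Hexa: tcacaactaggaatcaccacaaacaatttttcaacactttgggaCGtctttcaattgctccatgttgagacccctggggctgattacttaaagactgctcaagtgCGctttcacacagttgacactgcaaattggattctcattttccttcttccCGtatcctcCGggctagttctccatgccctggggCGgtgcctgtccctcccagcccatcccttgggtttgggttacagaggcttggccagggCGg
Rab25: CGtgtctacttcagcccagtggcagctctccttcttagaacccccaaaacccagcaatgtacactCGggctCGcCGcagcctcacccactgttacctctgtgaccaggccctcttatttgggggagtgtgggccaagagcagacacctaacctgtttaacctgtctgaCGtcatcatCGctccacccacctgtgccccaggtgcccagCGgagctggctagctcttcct

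The nearest tested neighbours of these genes were expressed in both groups. Hexa lies on chromosome 9 from 59539540 to 59565109, between Arih1 (196.8 CPM in mock, 187.4 in wt, log2 fold change 0.07, adjusted p = 0.55) and Parp6 (13.85 and 12.07 CPM, 0.20, adjusted p = 0.27). Rab25 lies on chromosome 3 from 88542029 to 88548300, between Mex3a, which rose (77.38 and 49.99 CPM, 0.63, adjusted p = 0.00066), and Lamtor2 (27.05 and 27.6 CPM, -0.03, adjusted p = 0.87). Next to Dapk1, Tut7 had -0.26 (adjusted p = 0.092), and next to Rasef, Tle1 had -0.20 (adjusted p = 0.12) and Kdm4c -0.01 (adjusted p = 0.95). The exons of Hexa overlap those of Tmem202 on the opposite strand over 255 bases, and whether the counting used strand is not given in the sources used here. Below the CPM limit of the rule, and chosen after their values were seen, Zc4h2 and Tspan7 on the X chromosome had the reverse pattern. Zc4h2 was at 1.95, 2.00 and 2.16 CPM in mock and at 0, 0.0413 and 0 CPM in wt. Tspan7 was at 1.95, 2.64 and 2.68 CPM in mock and at 0, 0 and 0.24 CPM in wt, and its MYBup mean was 2.51 CPM.

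Epithelial genes fell more often than they rose. Of 23 tested members, 11 were called lower and 5 higher, against 17.9% and 18.0% of all tested genes, and the median log2 fold change was -0.38 against -0.005. Cdh1, which encodes E-cadherin, the adhesion molecule of adherens junctions, was at 290, 257 and 283 CPM in mock and at 443, 464 and 537 CPM in wt. Every mock library was below every wt library (log2 fold change -0.80, SE 0.10, adjusted p = 5.8e-05). Cldn7, a claudin of tight junctions, was at 1.42, 2.50 and 1.37 CPM in mock and 9.72, 8.63 and 13.8 CPM in wt, also without overlap (-2.62, SE 0.31, adjusted p = 5.1e-05). The calls also included the epithelial splicing factor gene Esrp2 (-1.13), Cldn4 (-0.81), the tight junction gene Ocln (-0.71), the desmosome gene Dsp (-0.51) and Epcam (-0.35, adjusted p = 0.046). Epcam was not called without wt replicate 3 (-0.16, adjusted p = 0.237), mock replicate 1 (0.16 as adjusted p) or mock replicate 2 (0.0706). The members that rose were Cldn3, Esrp1 (0.51), Krt8 (0.44), the junction gene Jup (0.36) and Krt18 (0.35), and without wt replicate 1 there were 3. Of 6 tested mesenchymal genes, 2 were called higher and 0 lower in edgeR, with a median of 0.32, against 18.0% and 17.9% of all tested genes. The count of lower calls was also 0 at an unadjusted p under 0.05, with DESeq2 and with limma voom. The 2 were the intermediate filament gene Vim (0.41) and the transcription factor gene Twist1 (0.81). The other 4 were not called, among them Snai1 (0.25) and Zeb2 (-0.05).

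More chemokine and cytokine genes rose than fell in mock, with 10 of 21 tested members called higher and 2 lower (median 0.30), against 18.0% and 17.9% of all tested genes. Cxcl3, a neutrophil chemokine, was at 6.64, 9.62 and 4.77 CPM in mock and at 0.182, 0 and 0.959 CPM in wt. Each mock library exceeded each library of the other 3 groups (log2 fold change 4.24, SE 0.62, adjusted p = 0.00039, and 6.21 without wt replicate 3). The epithelial alarmin Il33 (1.39), Il18 (1.46), the myeloid growth factors Csf2 (2.32) and Csf3 (0.93), Spp1, which encodes osteopontin (0.99), and Il11 (0.88) were called too. Tslp (-0.71) and Il23a (-0.57) fell. The count of 10 was 5 without mock replicate 1, 6 without wt replicate 1 and 5 without wt replicate 2. That is closer to the 18.0% over all genes in the fit of all 12 libraries. Higher calls over all genes also went from 2038 to 1636, 1573 and 1575 in these fits, in that order. Csf2 was at 3.85 without wt replicate 3, and its exons overlap those of Gm12223 on the opposite strand over 96 bases.

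The Cxcl3 window upstream of the RefSeq start, chr5:90785851-90786100 on the plus strand of GRCm38.p6, is shown because Cxcl3 had the largest rise of the list and the window holds a match to a form of the kappa B motif, which NF-kB proteins bind, in capitals.
Cxcl3: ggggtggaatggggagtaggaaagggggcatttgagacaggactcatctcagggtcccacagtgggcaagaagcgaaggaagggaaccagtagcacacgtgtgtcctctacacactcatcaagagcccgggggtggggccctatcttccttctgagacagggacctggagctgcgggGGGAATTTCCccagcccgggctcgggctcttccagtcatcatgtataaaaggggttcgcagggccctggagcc
Searched on both strands, this motif was in 0.356% of 32851 windows of 250 bases. It was in 3 of 13 chemokine and cytokine genes with a window (Csf1, Cxcl1 and Cxcl3), of which 1 was called higher, and in 2 of 17 NF-kB response genes (Nfkb2 and Nfkbia). The percentage counts windows, while a list gene counted if any of its windows held the motif. The 13 genes had 16 windows and the 17 had 21, so the measures are not alike. A match is a stretch of letters and shows no binding.

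The mock libraries were not alike in several inflammatory genes. Lcn2, the iron-binding lipocalin, was at 28.0, 31.5 and 2.42 CPM in mock and 1.82, 0.744 and 3.50 CPM in wt. Cxcl5, a neutrophil chemokine, was at 186, 195 and 39.0 CPM in mock and 40.2, 30.9 and 38.7 CPM in wt. The monocyte chemokine gene Ccl2 was at 6.21, 7.70 and 1.63 CPM against 0.818, 1.03 and 2.16 CPM. In all 3 genes mock replicates 1 and 2 were high, mock replicate 3 was at or near the wt values, and the groups overlapped. The complement gene C3 was also lowest in mock replicate 3, at 75.8, 61.0 and 19.3 CPM in mock and 5.95, 7.10 and 25.1 CPM in wt. The log2 fold changes were 3.38 for Lcn2 (adjusted p = 0.0029), 1.94 for Cxcl5 (0.014 as adjusted p), 1.97 for Ccl2 (0.036) and 2.05 for C3 (0.0058). Without wt replicate 3 they were 4.03 for Lcn2 and 3.00 for C3, and limma voom did not call Lcn2 (3.02, adjusted p = 0.0531). Cxcl5 was not called without mock replicate 1 (adjusted p = 0.0555) or wt replicate 2 (0.0543). Ccl2 was not called when mock replicate 1 or 2 or wt replicate 1 or 2 was left out (0.101 to 0.114), nor by limma voom (0.189). Of 21 NF-kB response genes 6 rose and 2 fell, against 18.0% and 17.9% of all tested genes. The median was 0.07, and 5 fell without mock replicate 3. In this list 38.1% were called, near the 35.9% of all tested genes. Tnfaip2 was at 480, 506 and 404 CPM in mock and 190, 181 and 200 CPM in wt, without overlap (1.28, adjusted p = 2.4e-06). Nfkbia, which encodes an inhibitor of NF-kB, rose by 0.55, Sod2 fell by 0.70 on the log2 scale, and Icam1 (-0.23) and Ptgs2 (-0.29) were not called.

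Lysosomal genes other than Hexa were often higher in mock. Of 27 tested members 13 were called higher (background 18.0%) and 1 lower, with a median of 0.24. Npc2, which binds cholesterol in the lysosome, was at 494, 581 and 412 CPM in mock and 234, 242 and 261 CPM in wt. The cysteine protease gene Ctsl was at 2247, 2490.0 and 1695 CPM in mock and 1303, 1428 and 1310.0 CPM in wt. The exons of Ctsl overlap those of Gm49230 on the same strand over 395 bases and those of Gm47123 on the opposite strand over 1742, so its counts are uncertain. Npc2 and Ctsl were higher in every mock library than in any other library of the series (1.01, SE 0.11, adjusted p = 3.4e-05, and 0.67, SE 0.12, adjusted p = 0.00077). The protease genes Ctsd (0.65), Ctsh (0.64) and Ctsa (0.45), the glycosidase genes Gla (0.67) and Glb1 (0.46), Psap (0.53), the membrane proteins Lamp2 (0.57) and Lamp1 (0.21) and the transcription factor gene Tfe3 (0.53) were also called. Ctsb (0.09), Tfeb (-0.43) and Mitf (-0.18) were not called.

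TCACGTG is the core of the motif bound by the transcription factors of the TFEB and TFE3 family. It was found on either strand in 3.13% of 32851 RefSeq windows of 250 bases, in 4.96% of the windows of tested genes, and in 7 of 20 lysosomal genes with a window: Ctsa, Ctsd, Gaa, Gla, Glb1, Lamp1 and Mcoln1. Of these 7, 5 were called higher, and of all 20, 10 were. The Lamp1 and Glb1 windows are printed with the motif in capitals, as a window with several matches and one with a single match among genes that rose. They lie at chr8:13158911-13159160 and chr9:114400828-114401075, both on the plus strand, and CACGTGA is the motif read on the other strand.
Lamp1: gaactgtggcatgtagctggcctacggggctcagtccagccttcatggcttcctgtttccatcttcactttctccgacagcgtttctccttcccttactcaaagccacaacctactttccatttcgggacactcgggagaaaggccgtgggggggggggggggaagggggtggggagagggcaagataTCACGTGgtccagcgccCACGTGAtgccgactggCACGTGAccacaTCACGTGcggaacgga
Glb1: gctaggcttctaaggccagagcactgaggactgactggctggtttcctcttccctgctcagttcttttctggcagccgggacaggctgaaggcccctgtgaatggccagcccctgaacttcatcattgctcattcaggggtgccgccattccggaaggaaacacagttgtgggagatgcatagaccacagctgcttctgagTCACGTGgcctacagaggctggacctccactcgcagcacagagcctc
The Lamp1 window has 4 matches and its gene rose by 0.21. The Glb1 window has 1 match and its gene rose by 0.46. A match does not show binding.

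Of 31 tested genes of sterol and fatty acid synthesis, 10 fell (background 17.9%), 1 rose and 20 were not called, and the median was -0.17. Idi1, an isomerase of the mevalonate pathway, was at 28.2, 23 and 21 CPM in mock and at 40.7, 32.0 and 48.6 CPM in wt, with no overlap (log2 fold change -0.74, SE 0.14, adjusted p = 0.0015). The cholesterol enzyme genes Hsd17b7 (-0.66), Mvd (-0.63), Msmo1 (-0.58), Lss (-0.51), Hmgcs1 (-0.40), Sqle (-0.38) and Cyp51 (-0.37) fell, as did Scd1 and Srebf2, the transcription factor gene of the pathway (-0.48). Ebp rose (0.47), and Acly (-0.07) and Fasn (-0.01) were not called. The 10 calls became 6 without mock replicate 3, without wt replicate 1 or without wt replicate 3, and 4 without both replicates numbered 3. That is near or below the 17.9% over all genes in the fit of all 12 libraries. Lower calls over all genes also went from 2018 to 1984, 1511, 1693 and 1651 in these fits, in that order. Mvd was not called without mock replicate 2 or 3 or wt replicate 1 or 3 (adjusted p 0.0575 to 0.159).

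Secreted proteases and their inhibitors changed in both directions. Of 23 tested members 10 were called higher and 8 lower, against 18.0% and 17.9% of all tested genes, and the median was 0.27. Besides Serpine2 and Mmp3, the metalloprotease genes Mmp19 (1.96), Mmp9 (1.06), Mmp13 (1.04) and Mmp14 (0.24), the leukocyte protease inhibitor gene Slpi (1.18), Timp2 (0.51) and the urokinase receptor gene Plaur (0.43) rose. Serpinb2, an inhibitor of urokinase, was at 0.996, 1.07 and 0.654 CPM in mock and 10.1, 18.1 and 6.86 CPM in wt. Its mock values were the lowest of the series (log2 fold change -3.67, SE 0.47, adjusted p = 8.4e-05). Plat, the tissue plasminogen activator (-0.98), and Adam8 (-1.11) also fell. Without mock replicate 1 the 10 higher calls were 6. The exons of Mmp19 and Serpinb2 overlap those of Tmem198b on the opposite strand and of Serpinb10 on the same strand, so their counts are uncertain.

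Adhesion receptor genes rose in 9 of 23 tested members and fell in 3 (median 0.10), against 18.0% and 17.9% of all tested genes. L1cam, a neural cell adhesion molecule, was at 2.51, 2.35 and 2.22 CPM in mock and 9.36, 10.9 and 10.1 CPM in wt, without overlap (log2 fold change -2.09, SE 0.12, adjusted p = 4.6e-07). Itgb6, whose integrin activates latent TGF-beta, fell by 1.47 on the log2 scale, and Itgb7 (2.09), Cadm1 (1.71), the laminin receptor gene Itga7 (1.00), Cd24a (0.80), the syndecan genes Sdc1 (0.78) and Sdc4 (0.51) and Cd44 (0.40) rose. The exons of L1cam share 100 bases with those of Arhgap4 on the same strand. Itgb1 (-0.07) and Itga6 (0.07) were not called. Among 24 extracellular matrix genes 4 rose and 6 fell (median 0.08), near those shares. Lama3, a laminin chain of the epithelial basement membrane, was at 16.9, 12.2 and 16.3 CPM in mock and 33.8, 49.1 and 31.4 CPM in wt (-1.33, adjusted p = 0.00073). The basement membrane collagen genes Col4a1 (-0.56) and Col4a2 (-0.68) and Thbs1 (-0.70) fell, and Nid1 (1.34) rose. The 6 lower calls were 3 without wt replicate 3, where the adjusted p of Thbs1 was 0.0554.

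Of 22 TGF-beta and YAP target genes 6 rose and 6 fell, against 18.0% and 17.9% of all tested genes. Ccn1, a matrix protein and classical YAP target, was at 144, 150 and 152 CPM in mock and 302, 318 and 316 CPM in wt. The mock values were tightly grouped and below all others (log2 fold change -1.07, SE 0.08, adjusted p = 2.0e-06). Tissue factor F3 (-1.65), the ligand genes Edn1 (-1.64) and Tgfb2 (-1.06) fell. Tgfbi (1.91), Tgfb3 (0.86), Id2 (0.83) and the receptor genes Tgfbr1 (0.44) and Tgfbr2 (0.49) rose. In the Wnt pathway 5 of 16 rose and 3 fell, the latter near the share over all genes. Rnf43, a ubiquitin ligase that removes Wnt receptors from the cell surface, was at 0.0949, 0.143 and 0 CPM in mock and 7.59, 8.34 and 4.51 CPM in wt (-6.30, SE 0.43, adjusted p = 1.2e-06), and Wnt10a fell by 2.17 on the log2 scale. The nuclear effector gene Lef1 (2.16) and the secreted Wnt inhibitor gene Notum (1.09) rose. The exons of Lef1 overlap those of Gm43352 on the opposite strand over 1208 bases, and those of Notum overlap those of Notumos over 708 bases. Of 11 EGF ligand and receptor genes, the ligand genes Tgfa (0.71) and Areg (0.66) and the feedback gene Lrig1 rose, and the receptor genes Egfr (-0.73) and Erbb3 (-1.07) fell. Egfr was not called without mock replicate 1 or 2 or wt replicate 1 or 3 (adjusted p 0.0887 to 0.111), nor Notum without mock replicate 1 (0.125) or with DESeq2 (0.0598). In AP-1 and immediate early genes 9 of 24 rose and 0 fell in edgeR (median 0.32), with 1 lower at an unadjusted p under 0.05 and 1 called lower by DESeq2 and by limma voom. The genes that rose included Klf4 (0.98), Spry4 (0.93), Ier5 (0.90), Dusp6 (0.53), Etv4 (0.59), Etv5 (0.49) and Fosl1 (0.35). Fos was called (0.93, adjusted p = 0.043) but not without mock replicate 1 or 2 or wt replicate 1 or 2 (adjusted p 0.0616 to 0.208).

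Among stress and cell cycle lists, the replication and S phase genes were called higher in 11 of 30 and lower in 2 (median 0.05), against 18.0% and 17.9% of all tested genes. The counts of the other lists in this group lay within 2 genes of those shares. Ccne1, the G1 to S cyclin E1, was at 22.4, 26.4 and 19.9 CPM in mock and 13.2, 13.6 and 14.4 CPM in wt, without overlap (log2 fold change 0.74, adjusted p = 0.00025), and E2f1 rose by 0.56 on the log2 scale. The 11 calls were 7 without mock replicate 2 or wt replicate 1 and 6 without wt replicate 3. Among 28 G2 and mitosis genes 5 rose and 4 fell, and the 4 were 0 without wt replicate 2, 1 without mock replicate 1 or wt replicate 1 and 2 without mock replicate 2 or wt replicate 3. Of 20 p53 targets 3 rose, Trp53inp1 (1.41), Fas (0.72) and Phlda3 (0.50), and 5 fell, with Cdkn1a (-0.21) and Mdm2 (0.14) not called. The 3 were 1 without mock replicate 2, and the 5 were 3 without mock replicate 1 or wt replicate 2. Fas was not called without mock replicate 2 or 3 or wt replicate 1 or 2 (adjusted p 0.0565 to 0.0861). In 21 NRF2 target genes 5 rose and 3 fell, with the ferritin gene Fth1 at 0.74 and the glutathione synthesis gene Gclm at -0.47, and the 5 were 3 without wt replicate 1. Of 22 genes of ATF4 and the unfolded protein response, 2 rose and 4 fell, the furthest the lipoprotein receptor gene Vldlr (-1.30). The 2 were 4 without mock replicate 3 and 1 without mock replicate 1, wt replicate 1 or wt replicate 2. Among 31 hypoxia and glycolysis genes 5 rose and 4 fell, including Egln3 (0.79), Aldoc (-1.45) and Pfkp (-0.76), and the 5 were 3 without wt replicate 2.

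Interferon and nucleic acid sensing genes, which respond to viral and foreign nucleic acids, gave few calls, most of them lower and most of them resting on single libraries. Of 20 interferon response genes 1 rose, Ifit2 (0.63, adjusted p = 0.036), and 3 fell, Oas1a (-2.10), Bst2 (-1.26) and Irf9 (-0.57), against 18.0% and 17.9% of all genes. Of 10 sensing genes 0 rose in edgeR (1 at an unadjusted p under 0.05, and 0 called by DESeq2 or limma voom) and 3 fell, the RNA sensor gene Tlr3 (-0.58), Tmem173, which encodes STING (-0.43), and the kinase gene Tbk1 (-0.25). After each chromosome's median was subtracted, Tlr3 on chromosome 8 (-0.30, adjusted p = 0.173) and Irf9 on chromosome 14 (-0.24, adjusted p = 0.357) were not called. Isg15 had -0.31 and was not called. MHC class I genes were called higher in 2 of 17 and lower in 1, with B2m at 0.53. Leaving out mock replicate 1, mock replicate 3 or wt replicate 1 ended the calls of Ifit2 (adjusted p 0.0874 to 0.142), Irf9 (0.0664 to 0.105) and Tmem173 (0.062 to 0.0787), and Ifit2 was also lost without wt replicate 2 and Irf9 and Tmem173 without wt replicate 3. Tbk1 was called without mock replicate 3 and in no other of the 6 fits that leave out 1 library. B2m was lost without mock replicate 2, wt replicate 1 or wt replicate 2 (0.0807 to 0.0885). Oas1a and Bst2 were called in all 6, but Oas1a was not without both replicates numbered 3 (-1.44, adjusted p = 0.0822). Irf9 shares 123 exon bases with Rnf31 on the same strand.

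**Figure D3:**
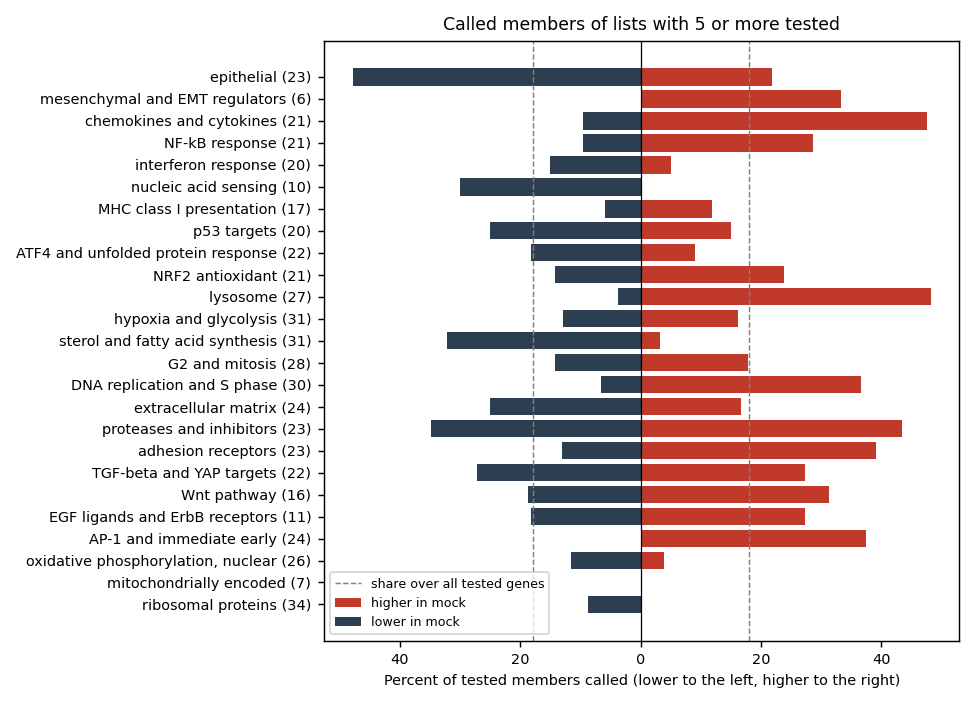
Percent of the tested members called, for each list with at least 5 tested members, as higher (right) or lower (left) in mock, with the number tested in brackets. Dashed lines mark the 18.0% and 17.9% over all tested genes. Lysosomal and chemokine bars reach furthest right, at 13 of 27 and 10 of 21 members, and the epithelial bar furthest left, at 11 of 23.

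The differences were unevenly spread over the chromosomes. On chromosome 14 the median log2 fold change of 375 tested genes was -0.34, 202 genes were called lower (53.9%, against 17.9% of all tested genes) and 15 higher, and 85.3% of the genes lay below 0. The medians were -0.30 on chromosome 8, -0.23 on chromosome 3 and -0.18 on chromosome 17, with 278 (44.4%), 214 (39.4%) and 172 (30.7%) genes called lower. Chromosome 12 went furthest the other way, with a median of 0.21 and 164 of 399 genes called higher (41.1%). Chromosomes 4, 5, 6, 9 and 16 also had medians above 0, of 0.11 to 0.14. On them 22.5% to 31.4% of the genes were called higher, against 18.0% of all tested genes. Chromosomes 3, 8, 14 and 17, which had the lowest medians, held 18.6% of the tested genes and 42.9% of the genes called lower. They held 6.72% of those called higher and 25% of those at least 2-fold lower. They were picked from these same values, so an excess of lower calls there was given by the choice. The shift was alike in each mock library: against the wt mean, the chromosome 14 medians were -0.35, -0.30 and -0.35 and the chromosome 8 medians -0.29, -0.27 and -0.29, while wt libraries stayed within 0.04 of 0. Chromosomes were divided into windows of 50 tested genes in order, with the remainder added to the last window (61 to 99 genes on chromosomes 3, 8, 12, 14 and 17). In the fit, all 10 windows on chromosome 3, all 12 on chromosome 8, all 7 on chromosome 14 and all 11 on chromosome 17 had medians below 0, and all 7 on chromosome 12 had medians above 0. Medians above 0 were also found in all 14 windows on chromosome 4, all 10 on chromosome 6 and 13 of 14 on chromosome 5.

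**Figure D4:**
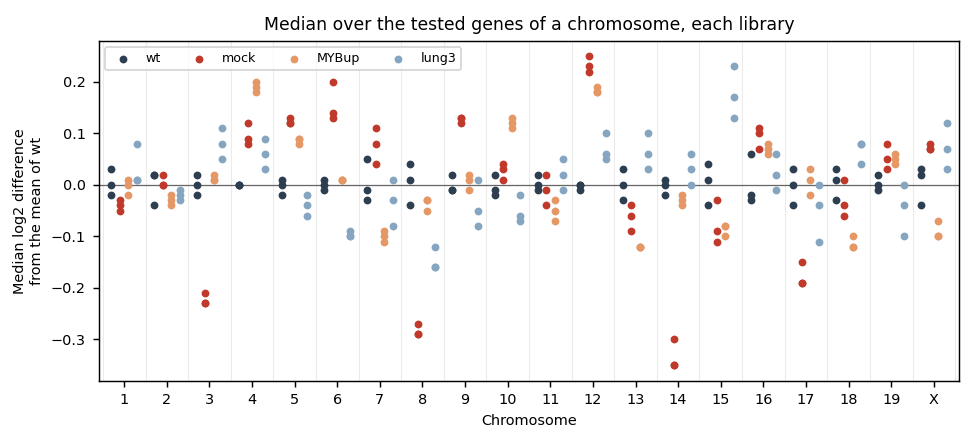
Median log2 difference from the mean of the wt libraries over the tested genes of each chromosome, 1 point per library. Mock points sit at -0.35 to -0.30 on chromosome 14 and at 0.22 to 0.25 on chromosome 12.

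**Figure D5:**
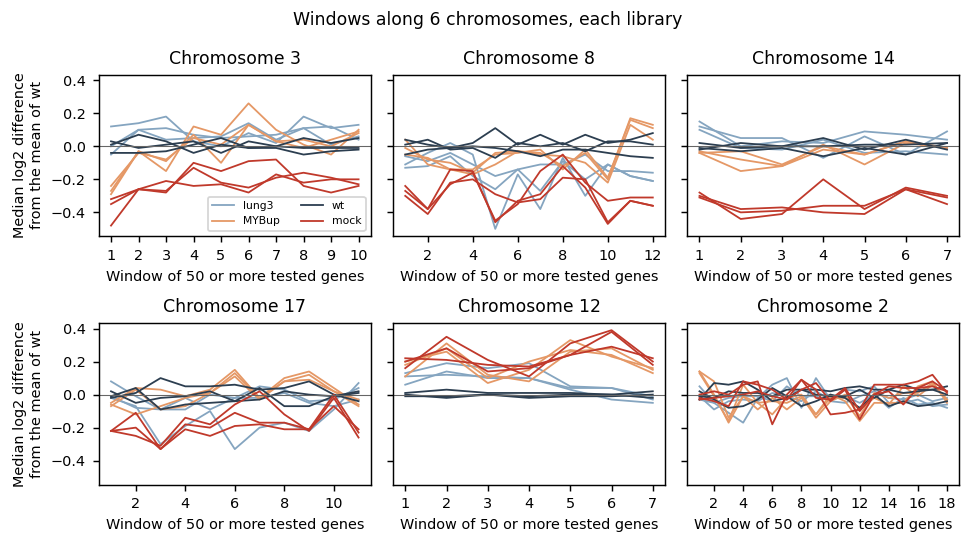
Medians over consecutive windows of 50 tested genes on 6 chromosomes, the last window of each holding up to 99, 1 line per library, as log2 difference from the wt mean. In the fit, mock lies at -0.41 to -0.27 in the windows of chromosome 14 and at 0.14 to 0.37 in those of chromosome 12, and chromosome 2 is shown as one whose median was 0.01.

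The other lines, which share the wt libraries with this comparison, are given side by side. MYBup against wt had medians of 0.01, -0.03, -0.03 and 0.00 on chromosomes 3, 8, 14 and 17 and 0.19 on chromosome 12, and lung3 against wt had 0.08, -0.15, 0.04 and -0.06, and 0.07. Some gene lists moved with the chromosome medians. Subtracting each chromosome's median left 3371 called genes, of which 2835 were among the 4056. On chromosome 14, 60 of 217 calls were among those left. The 3 ribosomal protein genes that fell, Rpl13 (-0.52) on chromosome 8 and Rps24 (-0.50) and Rpl15 (-0.43) on chromosome 14, were no longer called (adjusted p 0.286 to 0.603), nor were Tlr3, Irf9, Mvd (-0.35, adjusted p = 0.254) and Epcam (-0.17, adjusted p = 0.338), and S phase genes called higher went from 11 to 6. The counts for lysosomal genes (16 higher), epithelial genes (10 lower) and chemokines (10 higher) stayed within 1.5-fold of those above.

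At part of the genes the mock line stood apart from the whole series and not only from wt, as MYBup and lung3 also did. All 3 mock values lay above or all below the 9 other libraries for 1663 genes (14.7%), 795 above and 868 below, and 1452 of these were among the called genes. The same count was 309 for wt (2.74%), 1972 for MYBup (17.5%) and 1643 for lung3 (14.6%). Without mock replicate 2 the mock count was 2551, but leaving out a library can only keep or raise such a count. Among the largest changes, Pgf, Ptges, Xdh, Nmnat2 and Ubqln2 were above, and Stc2, Adamts1, Rbpms, Prom2 and Samsn1 below, every other library. Serpine2, Marcks and Mmp3 were high in MYBup too, with means of 149, 163 and 577 CPM.

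MYBup against lung3 sets the other plasmid line against the other line without plasmid, and it shares no library with mock against wt. In that comparison 5510 genes were called (48.8%), 2783 higher in MYBup (24.6%) and 2727 lower (24.2%). Of the genes higher in mock, 1190 were also higher in MYBup, which is 58.4% of the mock list and 42.8% of the MYBup list. Of the genes lower in mock, 1148 were also lower in MYBup, 56.9% and 42.1% of the lists. The opposite direction was found for 148 genes higher in mock (7.26%) and 138 lower in mock (6.84%). The plasmid, the Myb transgene and the lung passages cannot be told apart in this second comparison. Direct contrasts that share libraries with mock against wt called 4308 genes for MYBup against wt (38.2%), 3038 for MYBup against mock (26.9%) and 605 for lung3 against wt (5.36%).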

How the data were processed

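RNA of 12 libraries (4 groups of 3) was extracted with a column kit and made into TruSeq libraries, per the labels' protocols. The deposited values are whole-number counts per gene. STAR, edgeR and GRCm38 are named in the submitters' processing notes, while aligner version, counting tool, gene annotation and strandedness were not given in the sources used here. Deposited counts over 4 digits, 2708 values, carry 4 significant digits, which limits their precision. Of 22880 features, 7336 had 0 counts in every library, 22570 matched a symbol and 22647 a position in GENCODE M21.

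The counts were analysed in R 4.3.3 with edgeR 4.0.16 (filterByExpr by group, TMM factors, quasi-likelihood F test, 1 term per group over all 12 libraries, contrast mock minus wt), with Benjamini-Hochberg adjustment over 11291 genes and a threshold of 0.05. CPM values use the TMM factors. DESeq2 1.42.0 and limma 3.58.1 (voom) were alternatives, with other size factors, no filter, 6 libraries only, replicate blocks, a 1.5-fold minimum, centring by chromosome and leaving out each library. A library pair left out together was chosen after seeing the data. In simulated counts for 11203 genes, a small set drawn from genes with higher counts was changed in mock, with no chromosome shifts. The test recovered 80% of those raised 1.5-fold, 96% of those raised 2-fold and 100% of those raised 4-fold, and 6.93% of calls were false. These rates need not hold for genes with low counts or for changes as widespread as in the real data.

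The named genes are the 12 largest rises and 12 largest falls among called genes whose mean log2 CPM reached 3, with a proper symbol and groups that do not overlap, up to 4 called members with the largest change in each of 29 lists, genes silent in 1 line, Myb and 4 epithelial markers. Other members of a list are named as part of its description and were chosen after their values were seen. Members and lists were chosen with earlier results of these data known, and no list was tested as a set. Exon overlaps with genes on the opposite strand under 10% of the exon length are mostly not listed. A few list members are counted but not reported here by name. Same-numbered mock and wt libraries had deviation correlations of -0.123, 0.114 and 0.063, and differently numbered ones -0.147 to 0.066. With 3 libraries per group these values cannot decide whether the numbers pair the libraries, and the labels state no pairing. No replicate pair was a repeat of 1 library (chi-square per gene 6.565 to 37.42).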

Additional observations from a re-analysis of the deposited data

How the results depend on the processing

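The 4056 calls of mock against wt became 4052 with RLE size factors, 4012 with no filter, 3295 in a fit of the 6 libraries only, 4095 with DESeq2, 4167 with limma voom and 3543 without both replicates numbered 3. With a replicate block they were 3999 over 12 libraries and 3361 over 6, and whether the replicate numbers pair the samples is not known. Requiring a change beyond 1.5-fold left 483 genes, 257 higher and 226 lower, 409 at least 2-fold and 196 shared with MYBup against lung3. Leaving out 1 library gave 3084 to 3994 calls (1573 to 2010 higher, 1511 to 1984 lower), 598 to 719 at least 2-fold, 1824 to 2283 shared with MYBup against lung3, and 1701 to 2551 genes with mock outside the other libraries. The chromosome 3 median was -0.22 with RLE size factors, -0.17 with no filter, -0.24 to -0.22 without 1 library and -0.21 without both replicates numbered 3. The chromosome 8 median was -0.27 with no filter and -0.31 to -0.27 without 1 library, chromosome 14 was -0.30 and chromosome 17 -0.15 with no filter, and chromosome 12 was 0.25 with no filter, 0.21 to 0.23 without 1 library and 0.24 without both replicates numbered 3. The count of genes with mock outside the other libraries can only stay or grow when a library is left out. The cause of the other moves was not tested. Of 121 named genes called, 56 kept the call in every setting, 65 lost it in some setting, 26 of them only under the 1.5-fold minimum, and 0 changed direction. Genes removed by the filter on low counts were not tested, and the mock libraries were mostly shallower than those of wt, which limits the precision of low counts there. The median of all genes moved by less than 0.1 on the log2 scale under every setting. The scaling of the libraries holds this median near 0, so it says little about stability.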

Other observations

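A few genes typical of other cell types passed the filter. Tie1, a receptor of endothelial cells, was at 1.52, 1.5 and 1.31 CPM in mock and at 0, 0.0413 and 0.0479 CPM in wt, above every other library of the series (log2 fold change 5.28, SE 0.64, adjusted p = 6.2e-05), while the endothelial markers Cldn5, Emcn, Erg, Kdr and Plvap were at 0 in all 6 libraries. Cd74, the invariant chain of MHC class II, was at 0.427, 0.998 and 0.196 CPM in mock and 2.00, 2.15 and 4.36 CPM in wt (-2.42, adjusted p = 0.0072). The Cd74 value was -3.07 without mock replicate 2, and the gene was not called without both replicates numbered 3 (-1.61, adjusted p = 0.0826). Pdgfra, a growth factor receptor of mesenchymal cells, was at 48.6, 36.9 and 37.3 CPM in mock and 28.1, 30.1 and 21.5 CPM in wt (0.62, adjusted p = 0.0065). Postn, the other tested fibroblast and muscle marker, was called lower (-2.56), at 0, 0.071 and 0.719 CPM in mock. In wt it was at 1.227, 0.578 and 2.637 CPM, so the groups overlapped. Postn was not called without mock replicate 1 or 2 or wt replicate 1 or 3 (adjusted p 0.0655 to 0.163). The leukocyte marker Cd14 was called higher (0.39, adjusted p = 0.048), also with overlap. Cd14 was not called without mock replicate 1 or 2 or wt replicate 1, 2 or 3 (0.0576 to 0.196).

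Genes of energy metabolism and translation were seldom called. Of 26 nuclear genes of oxidative phosphorylation 1 was called higher and 3 lower, of 34 ribosomal protein genes 0 higher and 3 lower, and of 7 tested mitochondrially encoded genes 0 in either direction, against 18.0% of all tested genes called higher and 17.9% lower. The 3 lower calls in oxidative phosphorylation were 1 without mock replicate 1 or 3 or wt replicate 1 or 2. These counts are from edgeR, and for the ribosomal genes higher and the mitochondrially encoded genes in either direction the count was also 0 at an unadjusted p under 0.05, with DESeq2 and with limma voom. Ndufs1, a subunit of complex I on chromosome 1, was at 117, 124 and 120 CPM in mock and 157, 166 and 154 CPM in wt, below all other libraries (log2 fold change -0.40, SE 0.07, adjusted p = 0.00052).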
